A study of Mus musculus with 2 samples.

Results

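A set of 8 genes of sterol export and of the lipid-associated macrophage programme were followed across the cells of a p16 reporter mouse lung: Apoe, Abca1, Abcg1, Soat1, Trem2, Gpnmb, Lgals3 and Cd9. They were chosen by name, as 8 of the 15526 genes of the table, and were set side by side in 3 macrophage types and in the other cells, which were grouped by lineage markers. The animals were p16-FDR mice of the C57BL/6 strain, 20 to 22 months old, whose allele carries an FLP recombinase and a diphtheria toxin receptor fused to mCherry. All cells had been sorted as mCherry-positive from lung, in 2 samples of 1 group, and cells without mCherry were not analysed here. The labels do not say how many animals each sample pooled. The 2 libraries named in the cell names could not be matched to the 2 samples. With no map from cells to samples, all cells stand as 1 sample without a test, and library values serve as within-batch values.

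Macrophages take up lipoproteins and dead cells, free the sterol in their lysosomes, store part of it as ester droplets and export the rest. The transporters Abca1 and Abcg1 move cholesterol out of the cell, Abca1 mainly to lipid-poor apolipoproteins such as apolipoprotein E (Apoe) and Abcg1 to formed lipoprotein particles, and both are known targets of the oxysterol receptors LXR. Trem2 is a lipid-sensing receptor that signals through the adaptor Tyrobp, and Trem2, Gpnmb, Lgals3 and Cd9 together are often used to define lipid-associated macrophages of fat tissue and plaques. In the lung, alveolar macrophages clear surfactant lipid, and the loss of Abcg1 in mice is known to overload them with it.

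The table held 1344 cells, 1145 of library 1 and 199 of library 2, with a median of 5631 unique molecular identifiers (UMIs) in library 1 and 6716 in library 2, and no cell barcode was shared by both. The 8 genes and the pathway genes described further on took no part in the clustering, which gave 12 clusters. The first macrophage type comprised 20 cells in which all 10 alveolar macrophage markers, among them Marco and Krt79, were found in at least 20% of cells (18 cells of library 1 and 2 of library 2, median depth 10093.5 UMIs). The second comprised 48 cells with all 11 markers of a list led by Prg4 and Alox15 (47 and 1 cells, median depth 10686.5). The third comprised 110 cells with all 10 markers of the C1q-high interstitial list (95 and 15 cells, median depth 6910). These types are called Marco and Krt79, Prg4 and Alox15, and C1q-high below. C1q genes did not separate the last 2 of them: C1qa was at 22.1 UMIs per 10000 in the Prg4 and Alox15 cells and at 80.5 in the C1q-high cells, and had UMIs in every cell of both. The Marco and Krt79 marker list summed to 153 UMIs per 10000 in its own type, 0.794 in the Prg4 and Alox15 type and 1.47 in the C1q-high type, and the Prg4 and Alox15 list to 0.272, 273 and 0.982 in the same order. Cluster 8, a further 71 cells led by Cd74 and the class II genes H2-Eb1, H2-Aa and H2-Ab1, and cluster 6, 92 cells led by Mgp, Gsn, Bgn, Sparcl1 and Col1a2, stayed unnamed.

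A rate below is the summed UMIs of a gene in a class per 10000 UMIs of that class, with a 95% exact Poisson interval in brackets, and shares of cells carry exact binomial intervals. Both cover counting error only, since UMIs without independent animals are no replicates. A gene was called higher or lower in a class at a 2-fold difference of rates. As a gauge of free RNA, the club cell gene Scgb1a1 was at 0.705 to 3.24 UMIs per 10000 in every class but the fibroblast-like one. There its rate was 1322, but the median cell was at 1.49, the upper quartile at 3.97 and the highest cell at 7453. The class thus held some cells with far more Scgb1a1 than the rest, and its summed rates below include their UMIs. In the 156 T-cell-like cells (median depth 3636.5 UMIs) Apoe was at 0.293 and Lgals3 at 1.71 per 10000. Abca1 had no UMI in them and Trem2 had 1 UMI. Lgals3 was lower elsewhere, with no UMI in B-cell-like cells and 0.0225 in endothelial-like cells, so its T-cell-like value is not a floor.

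**Figure D1:**
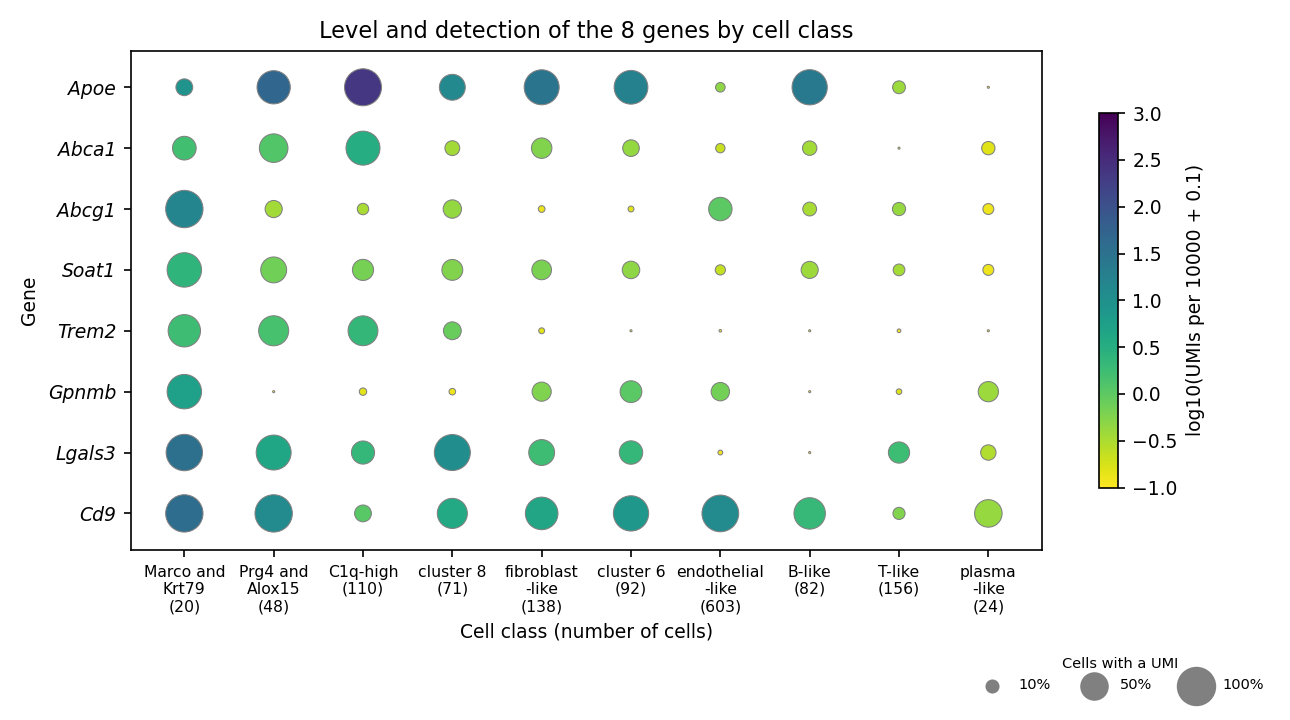
Level of the 8 genes (colour, log10 of UMIs per 10000 plus 0.1) and percent of cells with a UMI (dot size) in each cell class, with the number of cells under its name. Abcg1 and Gpnmb are highest in the 20 Marco and Krt79 cells, and Apoe in the 110 C1q-high cells.

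Set against all other cells, 7 of the 8 genes were at least 2-fold higher in Marco and Krt79 cells, while Apoe was lower. Across the 12702 genes found in at least 1% of cells, 28.2% were as much higher in this type and 18.3% as much lower. The largest differences were those of Abcg1 (33.5-fold, 28.9 to 38.7), Lgals3 (19.2-fold, 17.6 to 20.9) and Gpnmb (13.7-fold, 11.1 to 16.8). Soat1 followed at 7.85-fold (5.74 to 10.6), Cd9 at 5.47-fold (5.09 to 5.88), Trem2 at 5.12-fold (3.52 to 7.25) and Abca1 at 3.05-fold (2.09 to 4.32). For Abca1, 1 cell of library 2 held 14 of the 34 UMIs of the type, and without that cell it was 2.00-fold higher, just under the threshold. In C1q-high cells 3 genes were higher, Apoe (19.9-fold, 19.5 to 20.4), Abca1 (11.4-fold, 9.52 to 13.6) and Trem2 (11.1-fold, 8.93 to 13.8), against 12.0% of all genes, and Abcg1, Gpnmb and Cd9 were lower, against 22.7% of all genes. Prg4 and Alox15 cells had 2 genes higher, Trem2 (4.82-fold, 3.68 to 6.26) and Abca1 (2.24-fold, 1.68 to 2.94), against 10.9% of all genes. The call of Abca1 in them stood near the threshold, at a log2 fold of 1.16. It was 0.995 in 1 random draw of 2500 UMIs per cell and 0.65 against the unweighted mean of the other classes. With each cell given equal weight, Abca1 was still called higher. Prg4 and Alox15 cells had 2 of the 8 genes lower, Abcg1 and Gpnmb, near the background of 29.6%. In library 1 alone the same genes were called, higher and lower, in all 3 types. In C1q-high cells the lower call of Cd9 was lost where cells were typed by marker gates alone (log2 fold -0.60) and that of Abcg1 with the Prg4 gate first (-0.83).

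Apoe, the apolipoprotein that carries exported sterol, differed between all 3 types. Its gene lies at chr7:19696109-19699188 (GRCm38, minus strand). In Marco and Krt79 cells it was at 8.70 UMIs per 10000 (7.51 to 10.0), and 4 of 20 cells had a UMI. Of its 192 UMIs, 189 came from 1 cell, the only one of the type with C1qa UMIs, and without that cell the rate was 0.148 (0.0305 to 0.432), not above that of T-cell-like cells (0.174 to 0.464). Prg4 and Alox15 cells were at 47.8 per 10000 (46.0 to 49.7), with 38 of 48 cells positive and per-cell values of 0, 4.21 and 440 as lowest, median and highest. C1q-high cells were at 233 per 10000 (229 to 236), with 108 of 110 cells positive and per-cell values of 0, 214 and 570. The Marco and Krt79 rate was thus 0.0374 of the C1q-high rate (0.0322 to 0.0431) and the Prg4 and Alox15 rate 0.205 of it (0.197 to 0.214), and the per-cell ranges of the Prg4 and Alox15 and C1q-high types overlapped. C1q-high cells stood at 222 in library 1 and 288 in library 2.

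Within the Prg4 and Alox15 type Apoe was spread over few cells. The 5 cells with most Apoe held 78.6% of its 2590 UMIs, 32 of the 48 cells lay below 10 UMIs per 10000, and without the cell with most the rate was 35.1. The C1q-high marker genes other than the C1q genes were at 15.4 UMIs per 10000 in those 5 cells and at 3.53 in all 48, and their part in the spread was not tested. Outside the 3 types Apoe was at 29.3 in fibroblast-like cells, 24 in B-cell-like cells, 18.0 in cluster 6, 12.8 in cluster 8 and 0.374 in endothelial-like cells, and none of the 24 plasma-cell-like cells had a UMI, where the exact interval reaches 14.2% because the cells are few. Intervals of neighbours in the order of the 10 classes did not overlap, except those of endothelial-like and T-cell-like cells. B-cell-like cells had 81.7-fold more Apoe than T-cell-like cells (51.5 to 138), with 73 of 82 cells positive, and only 1 of the 82 came from library 2.

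Abca1, which passes cholesterol to lipid-poor apolipoproteins, followed Apoe in its highest class but in narrower steps. The gene lies at chr4:53030787-53159895 on the minus strand. It was at 1.54 UMIs per 10000 in Marco and Krt79 cells (1.07 to 2.15, 8 of 20 cells), 1.11 in Prg4 and Alox15 cells (0.845 to 1.43, 28 of 48 cells) and 3.29 in C1q-high cells (2.90 to 3.72, 91 of 110 cells). The Marco and Krt79 rate was 0.468 of the C1q-high rate (0.317 to 0.670) and the Prg4 and Alox15 rate 0.336 of it (0.249 to 0.447), while the first 2 types did not differ beyond counting error (1.39-fold, 0.885 to 2.15). C1q-high values agreed between the libraries, at 3.30 in library 1 and 3.26 in library 2. Apoe and Abca1 UMIs met in 2 of 20 Marco and Krt79 cells, 22 of 48 Prg4 and Alox15 cells and 90 of 110 C1q-high cells. Over the 10 classes, log2 rates of Abca1 and Apoe had a Pearson correlation of 0.83 and those of Abca1 and Trem2 of 0.82, a description of classes that share 2 libraries and differ in depth.

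The promoters of Abca1, Trem2 and Gpnmb are shown because the first 2 are high together in C1q-high cells, where Gpnmb is nearly absent. They run from 250 bases before to 50 after the start site, 5′ to 3′ on the gene's strand, from RefSeq (GRCm38.p6), and 7 of the 8 genes had such a sequence. Capitals mark matches to 6 motifs searched on both strands, the LXR and RXR direct repeat (the letters GGTNA repeated on the same strand with any 5 bases between the copies), CACGTG and TCATGTG (boxes known for TFEB and MITF), TGANTCA (AP-1), TATAAA and GAGGAAGT (PU.1).
Abca1 promoter, chr4:53159846-53160145, minus strand: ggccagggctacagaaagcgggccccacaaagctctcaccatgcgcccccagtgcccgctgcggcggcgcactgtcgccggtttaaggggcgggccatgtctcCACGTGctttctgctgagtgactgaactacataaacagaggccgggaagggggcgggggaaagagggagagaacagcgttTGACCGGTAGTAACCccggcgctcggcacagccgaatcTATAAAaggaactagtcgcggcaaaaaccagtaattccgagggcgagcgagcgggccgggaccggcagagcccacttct
Trem2 promoter, chr17:48346151-48346450, plus strand: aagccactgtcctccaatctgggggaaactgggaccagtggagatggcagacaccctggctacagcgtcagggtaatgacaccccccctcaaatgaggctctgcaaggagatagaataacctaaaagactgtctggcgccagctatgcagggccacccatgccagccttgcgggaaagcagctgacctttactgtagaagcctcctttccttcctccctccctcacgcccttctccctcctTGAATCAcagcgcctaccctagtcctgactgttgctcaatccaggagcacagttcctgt
Gpnmb promoter, chr6:49036268-49036567, plus strand: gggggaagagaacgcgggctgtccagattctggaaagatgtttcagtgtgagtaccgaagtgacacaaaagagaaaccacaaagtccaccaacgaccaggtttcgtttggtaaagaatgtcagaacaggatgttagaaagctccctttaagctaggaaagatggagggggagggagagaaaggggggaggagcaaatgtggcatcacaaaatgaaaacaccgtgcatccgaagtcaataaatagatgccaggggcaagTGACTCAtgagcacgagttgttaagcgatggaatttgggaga
Counted from the start site, Abca1 held a direct repeat beginning at -67 (on the opposite strand), a CACGTG at -147 and a TATAAA at -29, none of them overlapping. Of 32851 promoters of the same length, 0.718% held the direct repeat, 7.15% CACGTG and 13.6% TATAAA. Trem2 held TGAATCA at -9 and Gpnmb TGACTCA at 9, matches to an AP-1 motif found in 7.81% of promoters. A match is a description of the letters and not a bound site.

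Abcg1, which loads cholesterol onto formed lipoprotein particles, was highest in the type where Apoe was lowest. The gene spans chr17:31057675-31117988 on the plus strand. It was at 14.9 UMIs per 10000 in Marco and Krt79 cells (13.3 to 16.6), where every one of 20 cells was positive with per-cell values of 4.88, 13.6 and 27.0 as lowest, median and highest. It was at 0.258 in Prg4 and Alox15 cells (0.141 to 0.434, 10 of 48 cells) and 0.233 in C1q-high cells (0.138 to 0.367, 10 of 110 cells). The highest cell of those types had 2.38 and 5.22 per 10000, so the Marco and Krt79 cells overlapped only with the upper end of the C1q-high cells. The rate in Marco and Krt79 cells was 57.7-fold that of Prg4 and Alox15 cells (33.9 to 107) and 64.1-fold that of C1q-high cells (39.9 to 110). The 2 low types lay no higher than T-cell-like cells, at 0.326 (0.199 to 0.503). That value is not a floor, since fibroblast-like cells were at 0.0288 (0.00784 to 0.0736), below the intervals of both low types. Endothelial-like cells came second, at 0.913 (0.817 to 1.02) with 236 of 603 cells positive. The 2 cells of library 2 in the Marco and Krt79 type had 16.3 and 17.0 per 10000.

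Soat1 makes cholesterol esters for storage. It lies at chr1:156424525-156474331 on the minus strand. It was at 2.40 UMIs per 10000 in Marco and Krt79 cells (1.80 to 3.14, 17 of 20 cells), 0.628 in Prg4 and Alox15 cells (0.435 to 0.877, 23 of 48 cells) and 0.581 in C1q-high cells (0.424 to 0.778, 35 of 110 cells). Marco and Krt79 cells were 3.82-fold above Prg4 and Alox15 cells (2.44 to 6.07) and 4.13-fold above C1q-high cells (2.72 to 6.29), and the last 2 types overlapped. Its rates in Prg4 and Alox15, C1q-high, fibroblast-like and cluster 8 cells all lay within 0.478 to 0.628 and overlapped from one to the next.

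Trem2, the lipid-sensing receptor, was found in all 3 types within a narrow range. The gene lies at chr17:48346401-48354147 on the plus strand. It was at 1.63 UMIs per 10000 in Marco and Krt79 cells (1.14 to 2.26, 15 of 20 cells), 1.38 in Prg4 and Alox15 cells (1.09 to 1.74, 31 of 48 cells) and 2.14 in C1q-high cells (1.83 to 2.50, 70 of 110 cells). No pair reached 2-fold. Marco and Krt79 cells overlapped with both other types, and Prg4 and Alox15 cells were at 0.646 of the C1q-high rate (0.485 to 0.853). In library 1 alone the rates were 1.43 in Prg4 and Alox15 cells (1.12 to 1.79) and 1.81 in C1q-high cells, a ratio of 0.788 with overlapping intervals. Thinned to 2500 UMIs per cell, the shares of cells were 35.4%, 26.2% and 37.1% in the same order, against unthinned shares of 75%, 64.6% and 63.6%. C1q-high cells had 1.81 per 10000 in library 1 (1.50 to 2.17) and 3.80 in library 2 (2.81 to 5.03), so library 2 held more of it than counting error allows. Beyond these types Trem2 had 53 UMIs in 16 of 71 cluster 8 cells, 7 UMIs in fibroblast-like cells, 1 each in endothelial-like and T-cell-like cells, and none in B-cell-like, plasma-cell-like or cluster 6 cells. In cluster 8, 27 cells had at least 2 of C1qa, C1qb and C1qc at 2 or more UMIs. Trem2 was at 1.69 in those cells and 0.117 in the 44 others. C1qa UMIs were found in 29 of the 71 cells, so the 44 others included some with C1qa.

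**Figure D2:**
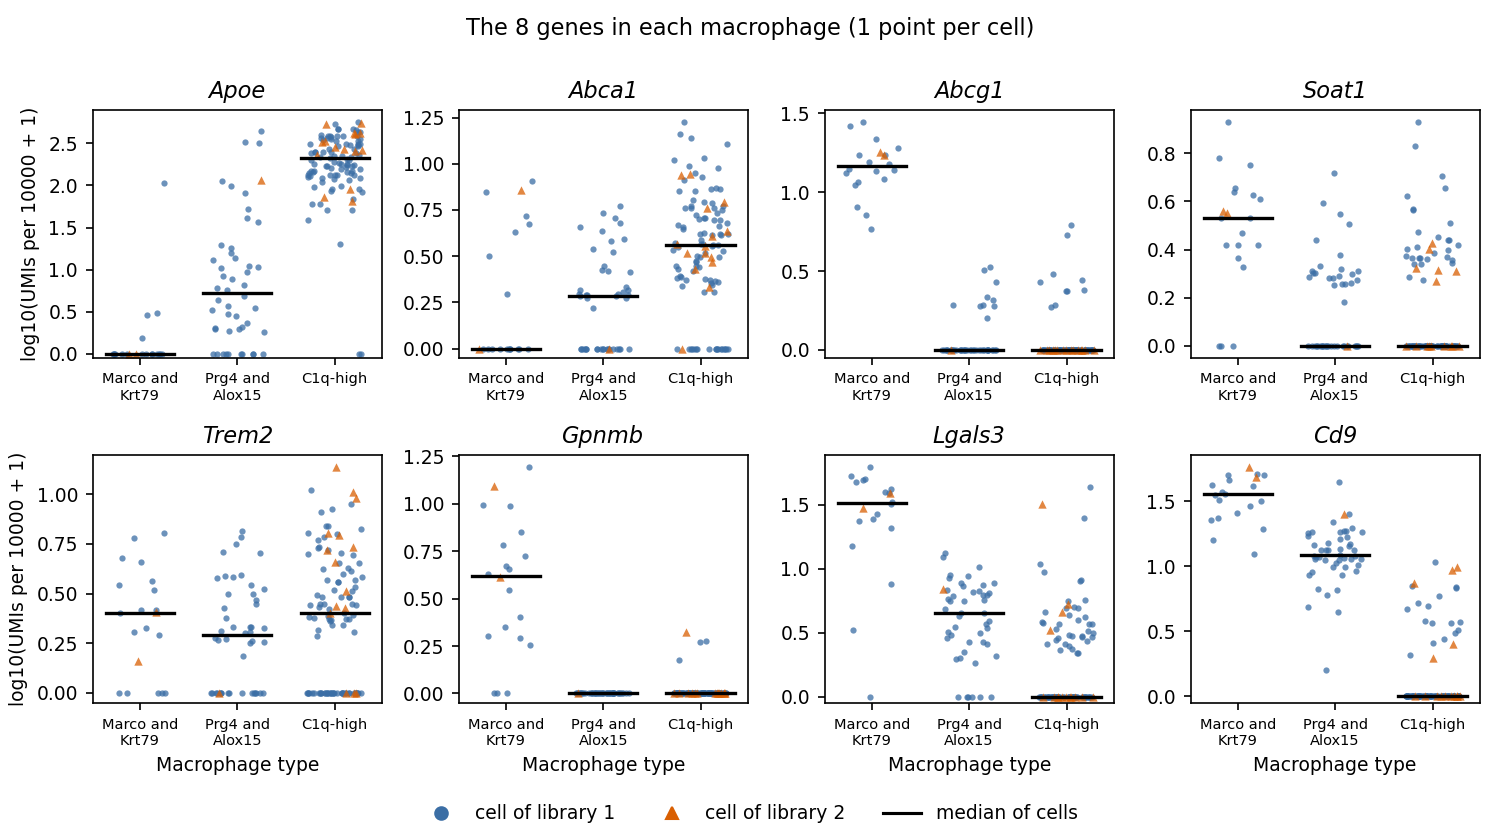
The 8 genes in each cell of the 3 macrophage types (1 point a cell, log10 of UMIs per 10000 plus 1), coloured by library, with the median as a line. All 20 Marco and Krt79 cells have Abcg1, and no Prg4 and Alox15 cell has Gpnmb.

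Gpnmb, a transmembrane glycoprotein of lysosome-rich phagocytes, was nearly limited to 1 of the 3 types. The gene lies at chr6:49036546-49070929 on the plus strand. It was at 5.44 UMIs per 10000 in Marco and Krt79 cells (4.51 to 6.50, 17 of 20 cells, per-cell values 0, 3.17 and 14.7), and it had no UMI in the 48 Prg4 and Alox15 cells and 4 UMIs in the 110 C1q-high cells. With the count of 0 set to 3 counts (0.0554 per 10000), Marco and Krt79 cells were 98.1-fold above Prg4 and Alox15 cells. The exact interval of that fold starts at 78.6. Against C1q-high cells they were 105-fold higher (40.0 to 392). Gpnmb was also seen at 0.945 in cluster 6, 0.618 in endothelial-like cells and 0.496 in fibroblast-like cells, each above every macrophage type other than Marco and Krt79.

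Lgals3, the galectin secreted by activated phagocytes, and Cd9, a tetraspanin of the cell surface, were graded between the types. Lgals3, at chr14:47367751-47386160 on the plus strand, was at 33.9 UMIs per 10000 in Marco and Krt79 cells (31.5 to 36.4, 19 of 20 cells), 4.21 in Prg4 and Alox15 cells (3.68 to 4.79, 42 of 48) and 2.11 in C1q-high cells (1.79 to 2.45, 42 of 110). Cluster 8 stood between the first 2, at 11.4 (10.6 to 12.2). Prg4 and Alox15 cells had 2.00-fold as much Lgals3 as C1q-high cells (1.63 to 2.46), a value just short of the call. Cd9, at chr6:125460266-125494791 on the minus strand, was at 38.6 in Marco and Krt79 cells (36.1 to 41.3, all 20 cells), 12.8 in Prg4 and Alox15 cells (11.8 to 13.7, all 48 cells) and 0.982 in C1q-high cells (0.773 to 1.23, 22 of 110 cells). Prg4 and Alox15 cells were thus 13-fold above C1q-high cells (10.2 to 16.7) and level with endothelial-like cells, at 12.5 (12.2 to 12.9). An antisense gene that is also in the table, Gm28809, overlaps Cd9, and without stated strand counting their reads could not be told apart.

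Between the 3 types, then, 5 of the 8 genes were higher in Marco and Krt79 than in C1q-high cells (Abcg1, Soat1, Gpnmb, Lgals3 and Cd9) and Apoe and Abca1 were lower, where 15.1% and 12.6% of all genes were. Against Prg4 and Alox15 cells the same 5 genes were higher and Apoe was lower, where 17.9% and 9.50% of all genes were. Of Prg4 and Alox15 over C1q-high, Cd9 was higher and Apoe and Abca1 were lower, where 7.10% and 19.8% of all genes were. The comparisons share cells pairwise, so the counts of the 3 pairs are not independent.

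**Figure D3:**
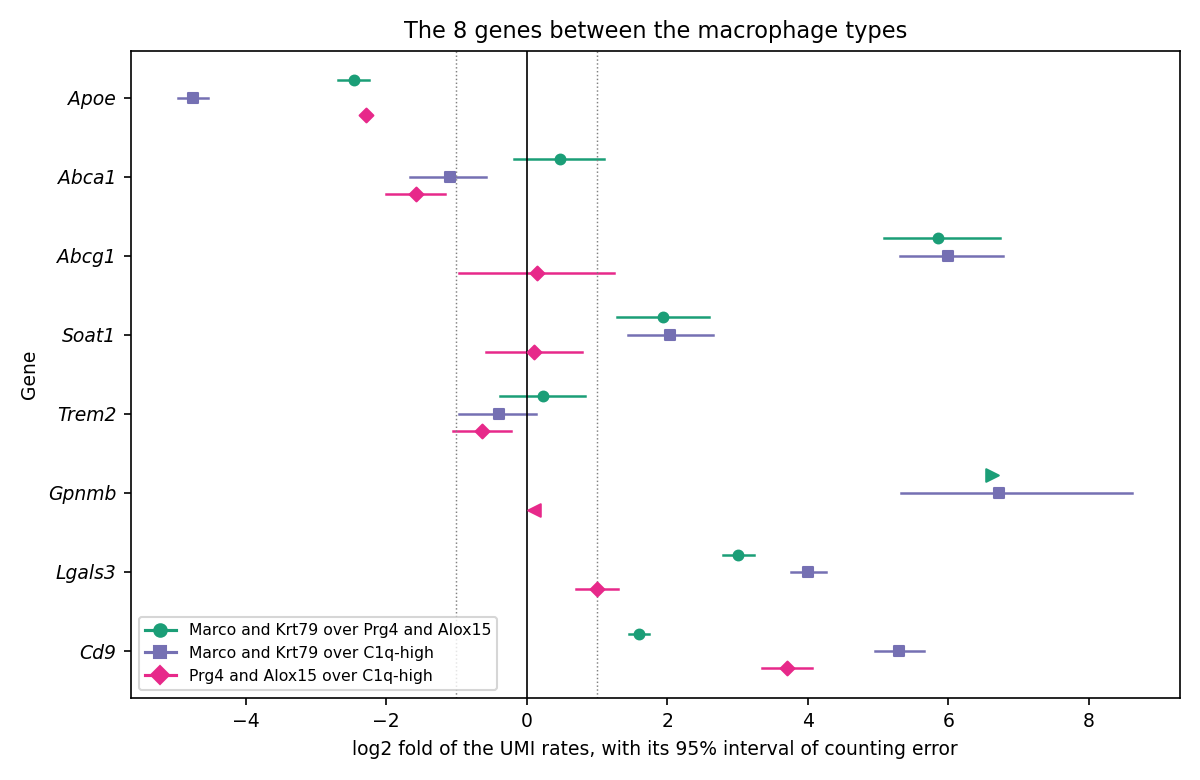
Log2 fold of the rate of each gene for 3 pairs of macrophage types, with 95% intervals of counting error. Arrows stand where a count of 0 was set to 3 counts. The dotted lines mark 2-fold; Abcg1 lies near 6 in both pairs with Marco and Krt79, and the points of Trem2 stay inside the lines in all 3 pairs.

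Single cells carried the genes in different combinations. Trem2, Cd9, Lgals3 and Gpnmb met in 12 of 20 Marco and Krt79 cells (60%, 36.1 to 80.9), 0 of 48 Prg4 and Alox15 cells, which allows up to 7.40% by the exact interval, and 1 of 110 C1q-high cells. Without Gpnmb the counts were 14 of 20, 28 of 48 and 6 of 110. Abcg1 and Gpnmb met in 17 of 20, 0 of 48 and 2 of 110 cells. Of the 8 genes, the median cell had 6 in the Marco and Krt79 type, 4.5 in the Prg4 and Alox15 type and 3 in the C1q-high type, and no cell of any type had all 8. Median depth was lowest in the C1q-high type, and its part in these counts was not tested.

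Other genes of sterol handling were counted in lists without the 8 genes, against all other cells, and the lists were chosen with earlier results known. Over all 12702 genes the shares higher were 28.2%, 10.9% and 12.0% in Marco and Krt79, Prg4 and Alox15 and C1q-high cells, and the shares lower 18.3%, 29.6% and 22.7%, the background of the counts of each list. In the list of the lipid-associated macrophage programme, 18 of 24 genes were higher and 1 lower in Marco and Krt79 cells, 8 higher and 7 lower in Prg4 and Alox15 cells, and 14 higher and 2 lower in C1q-high cells. Its median log2 fold was 2.34 in Marco and Krt79, 0.61 in Prg4 and Alox15 and 1.18 in C1q-high cells, against 0.22, -0.43 and -0.21 over all genes. Between the types the contrast was smaller for Marco and Krt79 over C1q-high cells, with 11 higher and 3 lower (median 0.64), where 15.1% and 12.6% of all genes were. Marco and Krt79 over Prg4 and Alox15 cells had 16 higher and 0 lower (median 1.95), where 17.9% and 9.50% were. Prg4 and Alox15 over C1q-high cells had 4 higher and 9 lower (median -0.75), where 7.10% and 19.8% were. The lipoprotein lipase Lpl was at 24.8 UMIs per 10000 in Marco and Krt79, 6.59 in Prg4 and Alox15 and 1.11 in C1q-high cells, and the lysosomal protease Ctsd at 63.6, 11.4 and 8.47. Ctsb, also a lysosomal protease, had another order, at 13.5, 11.4 and 33.0, and so did Tyrobp, the adaptor of Trem2, at 16.9, 25.3 and 13.5.

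Genes of ester storage and hydrolysis were higher in 4 and lower in 2 of 8 in Marco and Krt79 cells, 1 and 4 in Prg4 and Alox15 cells and 3 and 2 in C1q-high cells. In so short a list the higher share in Prg4 and Alox15 cells (12.5%) lay near that of all genes (10.9%), and in the other 2 types it was 50% against 28.2% and 37.5% against 12.0%. The droplet coat protein Plin2 was at 20.6 UMIs per 10000 in Marco and Krt79 cells (18.7 to 22.5), 5.32 in Prg4 and Alox15 cells and 4.57 in C1q-high cells. Nceh1, an ester hydrolase, was at 7.20, 0.258 and 0.698 in the same order, with all 20 Marco and Krt79 cells positive. Plin3 and the lipase Pnpla2 were low in all 3, at most 1.31. Sterol synthesis genes were higher in 10 of 23 and lower in 2 in Marco and Krt79 cells, higher in 1 and lower in 13 in Prg4 and Alox15 cells, and higher in 2 and lower in 1 in C1q-high cells, with median log2 folds of 0.81, -1.25 and -0.16. Hmgcs1, an early enzyme of the pathway, was at 1.04, 0.166 and 0.297, and Mvd at 0.589, 0.185 and 0.0775. The sterol sensor Insig1 was at 0.634, 0.351 and 0.840, and the enzyme Msmo1 at 0.770, 0.166 and 0.439.

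The other efflux genes and LXR targets were higher in 4 of 12 in Marco and Krt79, 0 of 12 in Prg4 and Alox15 and 2 of 12 in C1q-high cells, and lower in 2, 3 and 1. The higher shares in Marco and Krt79 (33.3%) and C1q-high cells (16.7%) lay near those of all genes (28.2% and 12.0%), and 3 of 12 lower in Prg4 and Alox15 cells was below the 29.6% of all genes. The phospholipid transfer protein Pltp followed Apoe, at 0.997 UMIs per 10000 in Marco and Krt79 cells, 4.27 in Prg4 and Alox15 cells and 8.10 in C1q-high cells, and Arl4c, a small GTPase known as an LXR target, was at 0.408, 0.0185 and 1.51. Apoc1 had 37 UMIs in 3 of the 20 Marco and Krt79 cells, and Tspo, a mitochondrial sterol-binding protein, lay between 2.63 and 4.58 in the 3 types. Of 9 uptake genes, 3 were higher and 3 lower in Marco and Krt79, 4 higher and 4 lower in Prg4 and Alox15 and 3 higher and 4 lower in C1q-high cells, where 28.2%, 10.9% and 12.0% of all genes were higher and 18.3%, 29.6% and 22.7% lower. The scavenger receptor Msr1 was at 0.0906, 2.53 and 1.10 in that order, Olr1, a receptor for oxidised lipoprotein, at 4.53, 2.51 and 0.0388, Stab1, a scavenger receptor, at 0.0453, 0.369 and 9.56, and Cd36 at 3.03, 1.77 and 5.30. Lysosomal release and transport genes were higher in 3 of 12 and lower in 1 in each type, a higher share of 25% where 28.2%, 10.9% and 12.0% of all genes were higher. The acid lipase Lipa was at 4.71, 1.02 and 1.80, the sterol carrier Npc2 at 7.11, 10.0 and 8.54, its membrane partner Npc1 at 0.634, 0.203 and 0.413, and Scarb2 at 2.22, 0.868 and 1.24.

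**Figure D4:**
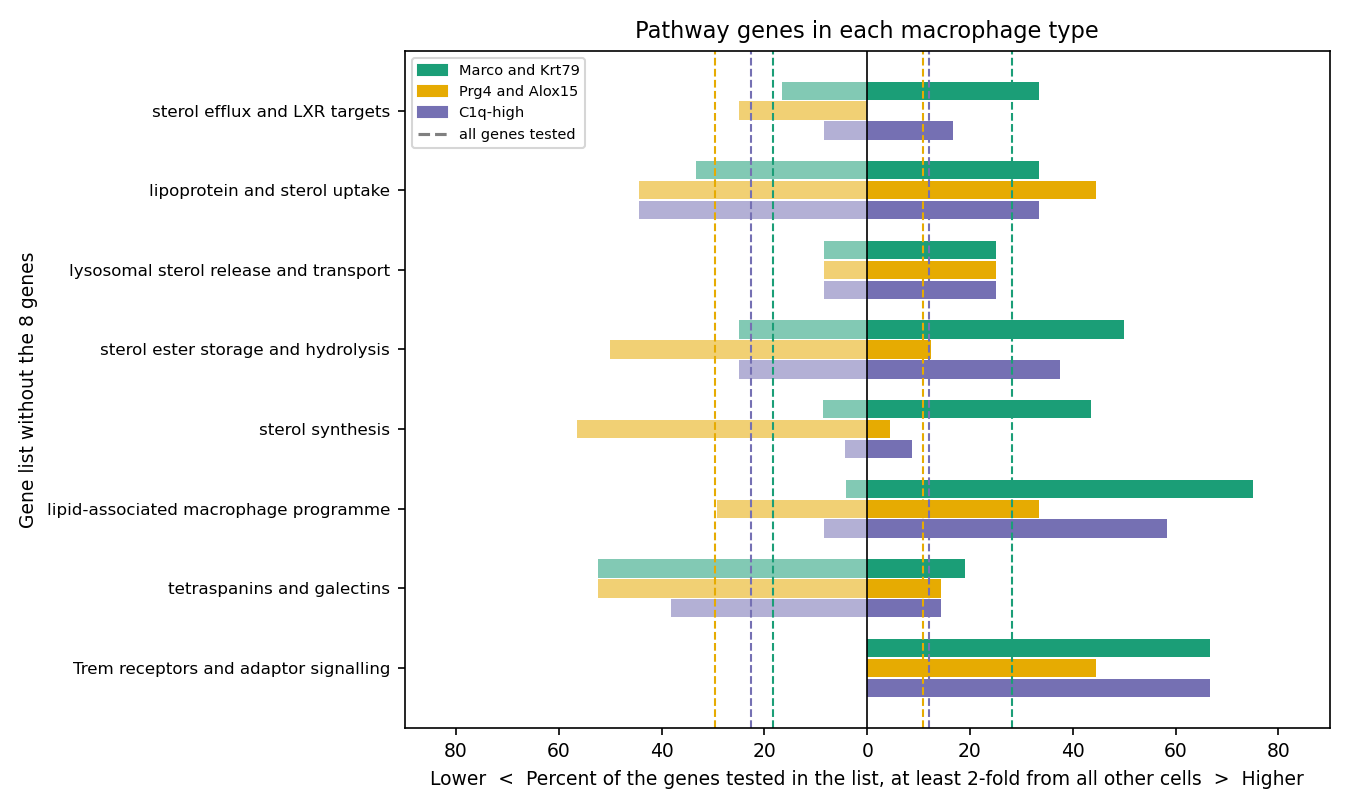
Percent of the tested genes of each list, without the 8 genes, at least 2-fold higher (right of 0) or lower (left, paler) than all other cells, with dashed lines at the percent over all genes for each type. The lipid-associated macrophage list extends furthest to the right in Marco and Krt79 cells.

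Genes most like each of the 8 were sought by Pearson correlation of log2 rates over the 10 classes, leaving out the lists. Each correlation rests on only 10 values and is among the 3 highest of a search through all genes found in at least 20 cells. The correlations are thus a description, and no background for them was computed. For Trem2 they were Clec5a, Tbxas1 and Fcgr3, all at a correlation of 0.99, and for Apoe Blvrb (0.94), Zfp106 (0.91) and Arap1 (0.91). For Abca1 they were Hs6st1 (0.96), Grn (0.93) and Agmo (0.93), for Abcg1 Exosc5 (0.96), Banp (0.96) and Iba57 (0.95), and for Gpnmb Uso1 (0.96), Hyou1 (0.96) and Magee1 (0.95). For Soat1 they were Atf1 (0.97), Atp13a3 (0.95) and Zfp703 (0.95), and for Lgals3 Txnrd1 (0.91), Ifrd1 (0.91) and Atp13a3 (0.89). For Cd9 they were Fig4 (0.95), 0610010F05Rik (0.93) and Fam53c (0.93). Among the 8 genes, Soat1 and Lgals3 were at 0.81 and Trem2 and Gpnmb at -0.02.

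The mice report the locus of Cdkn2a, the p16 gene, so each type was divided by whether a cell had a UMI of it. Apoe was at 76.6 UMIs per 10000 (73.4 to 79.8) in the 24 Prg4 and Alox15 cells with a Cdkn2a UMI and at 14.3 (12.8 to 15.8) in the 24 without. Their per-cell values were 0, 7.36 and 440 with Cdkn2a, and 0, 3.01 and 116 without, as lowest, median and highest. The ranges overlapped, and the median depths were close, at 10884 and 10441 UMIs. The rates rested on few cells. Of the 5 cells with most Apoe, which held 78.6% of its UMIs in the type, 4 had a Cdkn2a UMI. Of the 32 cells below 10 UMIs per 10000, 13 had one. Without the cell with most Apoe on either side the rates were 54.0 and 6.87, and in library 1 alone 76.6 and 6.87, since the 1 cell of library 2 had 116. Apoe alone of the 8 was past 2-fold in this type, where 6.56% of all genes were as much higher and 6.05% as much lower. The C1q-high marker genes other than the C1q genes were at 5.14 UMIs per 10000 in the cells with Cdkn2a and at 1.64 in those without, with UMIs in 8 and 3 cells, and the whole list at 109 and 66.3. The part of these markers in the difference was not tested. Endothelial markers ran the other way, at 0.171 with Cdkn2a and 5.68 without, and among cells with no endothelial marker UMI (19 and 14) Apoe was at 83.9 and 21.6.

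In the C1q-high type Apoe was at 223 UMIs per 10000 in the 25 cells with a Cdkn2a UMI and 236 in the 85 without, and Abca1 at 3.27 and 3.30. The libraries differed in this: in library 1 Apoe was at 227 with and 219.7 without and Abca1 at 3.60 and 3.195, but in library 2 (3 cells with, 12 without) Apoe was at 195 (179 to 213) and 312 (301 to 323) and Abca1 at 1.16 (3 UMIs) and 3.79. Abcg1 was at 0.614 in cells with Cdkn2a and 0.104 in cells without (12 and 6 UMIs), and Cd9 at 1.94 and 0.657 (38 UMIs each). Both were past 2-fold higher and none of the 8 lower, where 8.95% of all genes were as much higher and 6.20% as much lower. In library 1 Cd9 was at 2.24 in 22 cells with Cdkn2a and 0.357 in 73 without, but in library 2 it had no UMI in 3 cells with and 21 UMIs in 12 cells without, so the difference did not hold in library 2. Abcg1 had no UMI in either group of library 2. The 12 endothelial markers summed to 13.3 UMIs per 10000 in the cells with Cdkn2a and to 0.639 in those without, with a highest cell of 97.9 and 32.3 and UMIs in 7 of 25 and 15 of 85 cells. The alveolar macrophage markers summed to 5.17 and 0.225. Among cells with no endothelial marker UMI (18 and 70), Abcg1 was at 0.729 and 0.0833, from 9 and 4 UMIs, and Cd9 at 1.46 and 0.687. In 1 random draw of 2500 UMIs from each cell, no gene of the 8 with a fold was past 2-fold in this type, and Cd9 was at 1.4-fold. Abcg1 had too few UMIs in that draw for a fold, and no spread over draws was computed. The expected share of cells keeping a UMI at that depth was 23.5% with Cdkn2a and 9.68% without for Cd9. For Abcg1 it was 9.18% and 2.36%. Mean values with equal weight per cell were 1.54 and 0.608 for Cd9, and 0.510 and 0.0972 for Abcg1. In the Marco and Krt79 type only 3 of 20 cells had a Cdkn2a UMI, with median depths of 18402 and 9232 UMIs. Abca1 (3.03 with and 0.992 without) and Gpnmb (11.6 and 3.16) were past 2-fold higher and Apoe (0.168 and 11.8) lower, where 6.00% of all genes were as much higher and 5.94% as much lower. Without the highest cell on each side Abca1 was at 1.09 and 0.736 and Apoe at 0 and 0.140, while Gpnmb was at 10.2 and 2.69.

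**Figure D5:**
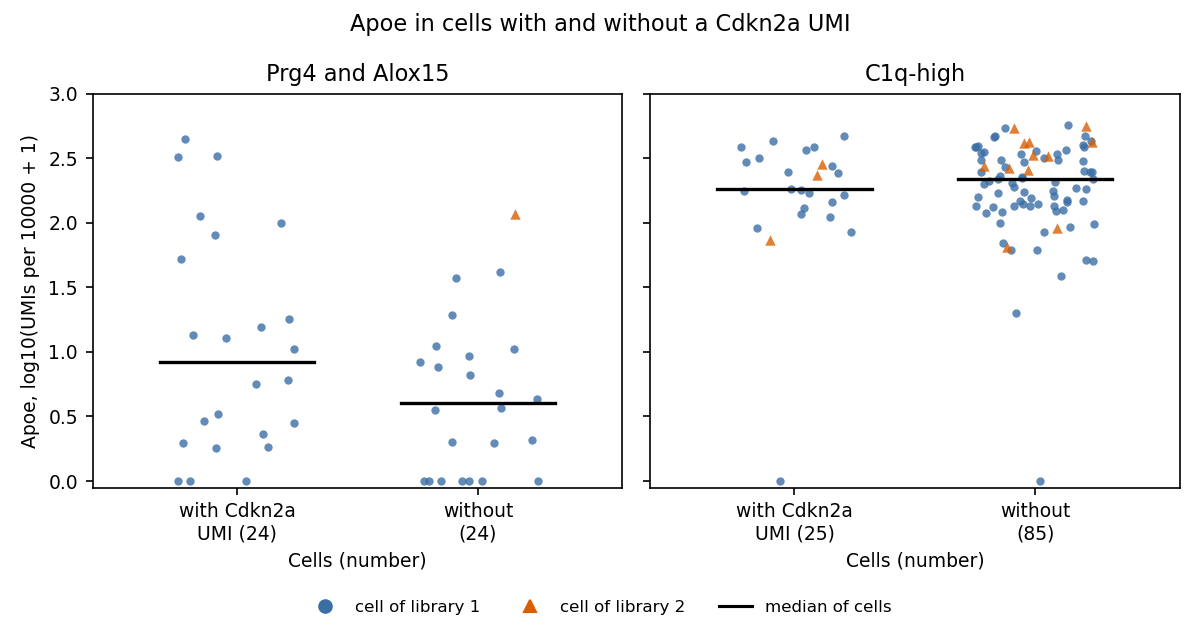
Apoe in each Prg4 and Alox15 (left) and C1q-high cell (right), with a Cdkn2a UMI on the left of each panel and without on the right, as log10 of UMIs per 10000 plus 1, coloured by library with the median as a line. The highest Prg4 and Alox15 cell with Cdkn2a is at 440 UMIs per 10000 and the highest without at 116, and the C1q-high medians are 180.0 and 219.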

How the data were processed

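Lung cells sorted as mCherry-positive were measured with droplet 3′ RNA sequencing (10x Genomics, v3), per the labels' protocols, and the submitters' processing notes name Cell Ranger 3.0.2 and mm10. The sources used here do not give the annotation, the filters or any removal of doublets. The deposited values are natural log values: the authors took the natural log of 1 plus a gene's UMIs per 10000 UMIs of the cell, as the values show, since every cell sums to 10000 after reversal. Whole UMIs were recovered from them in all 1344 cells, with a largest deviation of 1.78e-10. All genes were found in at least 3 cells and the highest mitochondrial share was 5.00%. No doublets were removed here. Of all cells, 30 had at least 3 markers of 2 or more lineages at 2 or more UMIs and were left out in an alternative.

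Clustering used scanpy 1.11.5 and 2000 variable genes without the 8 genes, the pathway lists, Cdkn2a, Cdkn2b and mCherry (scaled to at most 10, 20 components, 15 neighbours, Leiden resolution 0.5 with igraph 0.11.9). Clusters were named from fixed marker lists. Fold changes are ratios of summed UMIs, intervals are exact at 95%, and 3 counts stand in where none was seen. Since the table is 1 sample, no p-value is given. Named genes were the 8, up to 4 per pathway list with the largest rate difference and found in at least 5% of a type, the 3 most similar genes to each of the 8 (log2 of rate plus 0.1 over classes of at least 20 cells, genes in at least 20 cells), leading genes of clusters, Cdkn2a and Scgb1a1. The genes and lists were chosen with earlier results of these data known. The fold calls were checked on Poisson counts simulated for C1q-high against all other cells, without spread between cells. That check does not cover folds that rest on few cells. Gene positions come from GENCODE for GRCm38, which held 15363 of 15526 symbols.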

Additional observations from a re-analysis of the deposited data

How the results depend on the processing

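The counts of genes at least 2-fold higher than all other cells were recomputed with another resolution (1.0), 30 components, the gene lists kept in the clustering, marker gates, mixed cells left out, at least 1000 genes per cell, a 3-fold threshold, an unweighted mean of other classes, equal weights per cell, the cell with most UMIs left out, thinning to 2500 UMIs and each library alone. The 1000-gene filter removed no cell. Folds after thinning come from 1 random draw per cell, while thinned shares of cells are expected values. The count in Marco and Krt79 stayed at 6 or 7. In C1q-high it was 3 or 4 and always held Apoe, Abca1 and Trem2. Lgals3, not called in the report, was called higher with 30 components (175 cells, log2 1.90), the marker gates (187 cells, 1.31) and the Prg4 gate first (140 cells, 1.36). Lgals3 was called lower with resolution 1.0 (88 cells, -1.17), the lists kept (88 cells, -1.17), mixed cells left out (85 cells, -1.15) and the unweighted mean (110 cells, -1.54). All of these but the unweighted mean changed which cells the type held, so the Lgals3 calls are not of the same cells. Soat1 joined the higher genes without mixed cells, with equal weights, after thinning and in library 2. In Prg4 and Alox15 it was 2, but 1 with the 3-fold threshold, 1 with the unweighted mean and 4 with equal weights per cell. It was 3 with 30 components, where Apoe joined, 3 without mixed cells, where Soat1 joined, and 3 after thinning, where Soat1 and Lgals3 joined and Abca1 left. Genes past 2-fold between Prg4 and Alox15 and C1q-high numbered 3, but 5 with the lists kept in the clustering and 5 without mixed cells, where Abcg1 and Lgals3 joined. They numbered 4 with resolution 1.0 and 4 in library 1, where Lgals3 joined, 4 with the Prg4 gate first, where Gpnmb joined as lower, and 2 at 3-fold, and with 30 components Gpnmb stood in place of Abca1. Past 2-fold in the Cdkn2a comparison of Prg4 and Alox15 there was 1 gene, and 2 without the cell with most UMIs on either side, where Trem2 joined. In C1q-high there were 2 genes, and 0 after thinning, where Abcg1 had too few UMIs for a fold. There were 3 without the cell with most UMIs on either side (Soat1 lower) or without cells with endothelial marker UMIs (Trem2 lower). Abca1 was no longer past the threshold between Marco and Krt79 and C1q-high with 30 components, either marker gate, the 3-fold threshold, equal weights or without the Marco and Krt79 cell with C1qa. The causes were not tested. Of 296 recomputed folds of single genes 289 kept their sign and none reversed a called direction, 206 stayed within the counting interval of the value given and 90 moved outside it. The marker gates gave 1 Prg4 and Alox15 cell, since the C1q gate took the others, so no value was had. With the Prg4 gate first, chosen after seeing the data, 48 cells and the count of 2 came back. Library 2 alone gave a value for C1q-high cells only. No paired analysis was possible because the cell names carry no replicate number of the labels and no test was run. Depth limits shares below 1 UMI per cell, and all values come from 1 sample.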

Other observations

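Tetraspanins and galectins other than Cd9 and Lgals3 were at least 2-fold lower than in all other cells in 11 of 21 genes in Marco and Krt79 cells, 11 of 21 in Prg4 and Alox15 cells and 8 of 21 in C1q-high cells, where 18.3%, 29.6% and 22.7% of all genes were. They were higher in 4, 3 and 3, where 28.2%, 10.9% and 12.0% of all genes were. Cd63, a tetraspanin of late endosomes, was at 7.88 UMIs per 10000 in Marco and Krt79 cells, 0.849 in Prg4 and Alox15 cells and 7.93 in C1q-high cells. Cd81, a partner of Cd9 at the cell surface, was at 1.49, 2.81 and 9.52 in the same order, the reverse of Cd9. Lgals1 was at 6.43, 0.166 and 5.85, with 5 of 48 Prg4 and Alox15 cells positive, and Tspan13 was at 0.453, 0.369 and 0.504, against 9.03 in cells outside the 3 types. Genes of Trem receptors and their adaptor signalling were higher in 6 of 9 in Marco and Krt79, 4 of 9 in Prg4 and Alox15 and 6 of 9 in C1q-high cells, with none lower, where 28.2%, 10.9% and 12.0% of all genes were higher. Hcst, the second adaptor beside Tyrobp, was at 1.04, 1.61 and 0.4, the kinase Syk at 1.95, 0.923 and 1.37, and Adam17, a protease known to shed Trem2, at 1.72, 0.332 and 1.14.

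At a resolution of 1.0, 22 of the 110 cells joined the cluster of cluster 8, with the class II gene Cd74 at 264 UMIs per 10000 in those 22 cells and 116 in the other 88. Apoe was at 162 in the 22 cells and 252 in the others, Lgals3 at 5.65 and 1.15, and Cd9 at 2.37 and 0.607. Trem2 was at 1.82 (1.23 to 2.60) and 2.23 (1.87 to 2.64), and its intervals overlapped, as did those of Soat1, and Gpnmb had 2 UMIs on each side. Mrc1, a mannose receptor, was at 5.47 and 19.6. The 22 cells were picked by clustering, so these values are a description.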
